A study of Mus musculus with 14 samples.

Results

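The genes encoded by the mouse mitochondrial genome (mtDNA) were followed as 1 group. They were chosen as all rows of the deposited count table whose chromosome is MT, which gave 37 of 54532 rows. Of these, 13 are protein coding, 2 are rRNAs and 22 are tRNAs by the table's own biotype. Each protein coding gene is called an mRNA here, also where such genes overlap. The mRNAs comprise 7 for complex I, 1 for complex III, 3 for complex IV and 2 for ATP synthase. All 37 lie at the same positions in GENCODE M21, an annotation of the same genome build (mm10, also called GRCm38).

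RNA was sequenced from 14 libraries of cells sorted out of the submandibular gland, a salivary gland, of adult mice. All animals carried TertCreERT2/+ and Rosa26LSL-tdTomato/+, that is 1 Tert allele with an inducible Cre and a tdTomato reporter that Cre turns on. All sorted cells were DAPI- and EpCAM+, and the tdTomato+ cells are called Tert+ while the tdTomato- cells are called Tert-. The groups were Tert+ without radiation (n = 3), Tert- without radiation (n = 3), Tert+ after 15 Gy (n = 4) and Tert- after 15 Gy (n = 4), and radiation is abbreviated RT. The labels give neither the time after RT nor a tamoxifen schedule. They also do not state whether replicates are separate animals, and the p-values reflect the spread among these libraries alone. A cell type field in the labels contradicts the title of each of the 14 libraries, and the titles were followed for the sign of every Tert+ against Tert- difference.

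Total counts ran from 9220126 to 15943597 in the 6 libraries without RT and from 5520412 to 11642156 in the 8 libraries after RT. Every library after RT has a higher number in the sample descriptions than those without RT. The sort required EpCAM, yet 8 B cell markers summed to between 13626 and 23339 CPM (counts scaled to a common library size) across the 14 libraries, whereas 8 epithelial markers summed to between 98.8 and 586 CPM. All 8 markers of each of those lists had counts in every group. Markers of the gland's own acinar and granular duct cells were also counted and varied widely. In Tert+ without RT alone, 10 acinar markers summed to between 2793 and 32832 CPM, the lowest and highest values of all groups. The 8 granular duct markers summed to between 773 CPM (Tert+ after RT) and 14518 CPM (Tert- without RT). The values below therefore come from a mixture of cells, and in bulk RNA fewer cells of a type and less RNA per cell cannot be told apart. CPM were computed from library totals scaled with TMM factors.

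Mitochondrial DNA is a small circle without introns, transcribed from both strands into long precursors. The tRNAs lie between the other genes, and cutting them out releases the mRNAs and rRNAs. The mRNAs encode core membrane subunits of the respiratory chain and of ATP synthase, the rRNAs build the mitochondrial ribosome, and every other protein of these machines comes from nuclear genes. Stretches of mtDNA have also been copied into the nuclear chromosomes during evolution, and such copies can be nearly identical to the mitochondrial genes.

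One such row of copies bears on how these counts can be read, so its sequence is shown first. In the table, 7 unprocessed pseudogenes lie side by side on the minus strand of chromosome 1, between positions 24611535 and 24616197. They match mt-Co1, mt-Co2, mt-Atp6, mt-Co3, mt-Nd3, mt-Nd4l and mt-Nd4. The stretches below were taken from the GENCODE M21 transcripts on GRCm38 and run 5′ to 3′, with the bases that differ between a member and its copy in capitals. The first pair differs at 1 base over 345 aligned bases, the second at none over 681, and the third pair shows the end of the copy where its differences lie.
mt-Nd3 (chrM:9459-9518, plus strand): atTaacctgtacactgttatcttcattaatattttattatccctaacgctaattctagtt
Gm28438 (chr1:24613060-24613119, minus strand): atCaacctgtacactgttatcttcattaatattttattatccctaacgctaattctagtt
mt-Co2 (chrM:7013-7072, plus strand): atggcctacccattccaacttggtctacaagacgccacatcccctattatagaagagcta
Gm28661 (chr1:24615506-24615565, minus strand): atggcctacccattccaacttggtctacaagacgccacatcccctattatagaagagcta
mt-Co1 (chrM:6381-6440, plus strand): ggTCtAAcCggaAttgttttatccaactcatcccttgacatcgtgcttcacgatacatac
Gm29216 (chr1:24616138-24616197, minus strand): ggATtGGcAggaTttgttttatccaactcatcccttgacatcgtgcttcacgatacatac

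Counted from 1 at the 5′ end of the mitochondrial gene, mt-Nd3 and Gm28438 differ by T3C, which is position 9461 of mtDNA and position 24613117 of chromosome 1. Gm29216 matches bases 1054 to 1545 of mt-Co1 with 6 differences (T1056A, C1057T, A1059G, A1060G, C1062A and A1066T), all at the start of the copy. Gm28661, Gm10925, Gm28437 and Gm10222 are identical to the first 681 bases of mt-Co2, 678 of mt-Atp6, 783 of mt-Co3 and 294 of mt-Nd4l. Gm28439 is identical to the first 876 of the 1378 bases of mt-Nd4. A read that lies wholly in an identical stretch fits both places, and how such reads were counted is not given in the sources used here.

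Counts on the 37 genes came almost wholly from the mRNAs and rRNAs. Summed over 14 libraries they amounted to 2001109, of which complex IV mRNAs held 799081, the complex III mRNA mt-Cytb 592900, complex I mRNAs 437633, rRNAs 166005, ATP synthase mRNAs 4889 and tRNAs 601. All 13 mRNAs and both rRNAs passed the filter on low counts. Of the 22 tRNAs, 2 passed (mt-Tn and mt-Tm), another 8 had some counts and 12 were at 0 in all 14 libraries.

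The genes differed widely in level per length, given as mean CPM per kilobase over the 14 libraries. mt-Cytb, cytochrome b of complex III, stood at 4205 and mt-Co1, the catalytic subunit of complex IV, at 4080. They were followed by the complex I subunit mt-Nd1 at 1388, the large rRNA mt-Rnr2 at 741, mt-Nd5 at 577, mt-Nd4 at 484 and mt-Nd2 at 402. Far below came mt-Nd6 at 123, mt-Co2 at 109, mt-Co3 at 106, mt-Atp6 at 54.2, the small rRNA mt-Rnr1 at 43.6, mt-Nd3 at 16.5, mt-Atp8 at 6.30 and mt-Nd4l at 3.59. These are counts per annotated gene and need not be levels of separate RNAs. The mt-Atp8 gene overlaps mt-Atp6, and mt-Nd4l overlaps mt-Nd4.

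Several neighbours in this order did not differ beyond their spread. Without RT, mt-Cytb measured 1677 ± 948 CPM per kilobase in Tert+ (SD, n = 3) and mt-Co1 1580 ± 939. After RT these levels were 5127 ± 1317 and 5398 ± 1492 in Tert+ (SD, n = 4). mt-Co2 and mt-Co3 also lay close, at 35.4 ± 11.96 and 40.6 ± 23.1 CPM per kilobase in Tert+ without RT. mt-Nd6 is the only mRNA of the group on the minus strand, and its level was above those of mt-Co2 and mt-Co3 in Tert+ without RT, at 57.3 ± 20.3, but below mt-Co2 in Tert- after RT, at 160 ± 78.9 against 187 ± 58.4.

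**Figure D1:**
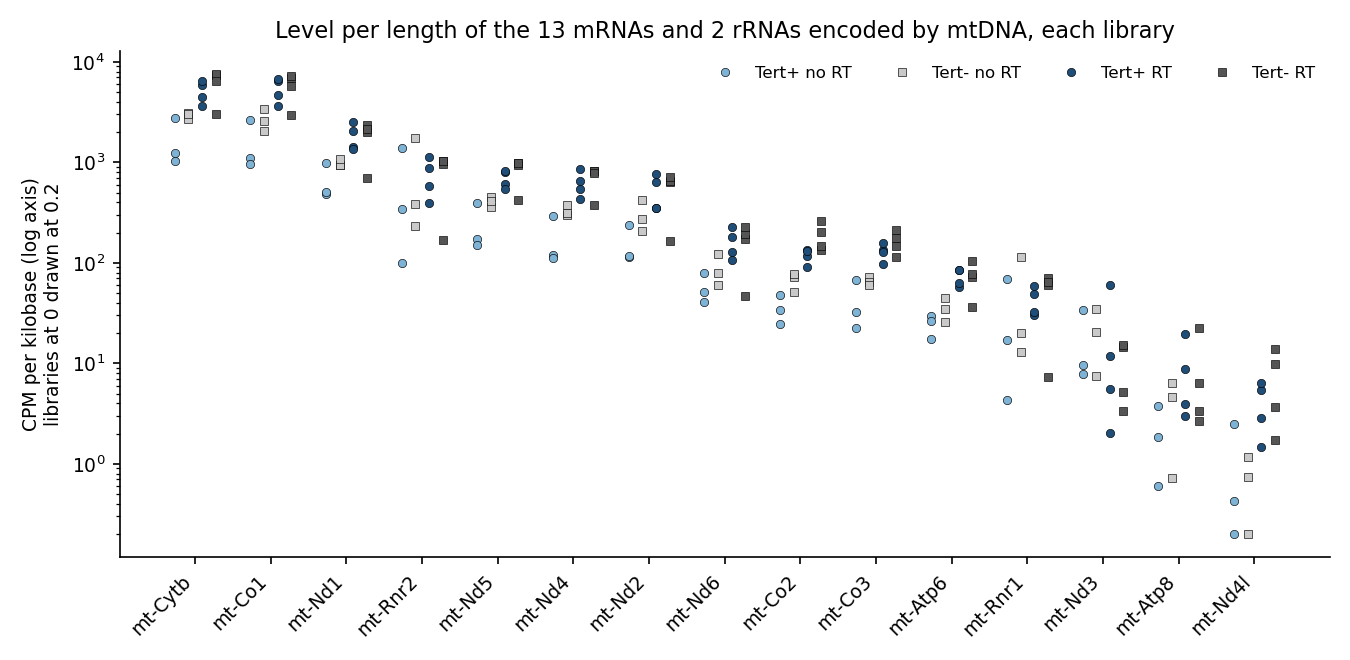
CPM per kilobase (log axis) of the 13 mRNAs and 2 rRNAs, 1 point per library, circles for Tert+ and squares for Tert-, light for no RT and dark for RT, with libraries at 0 drawn at 0.2. mt-Cytb and mt-Co1 lead at means of 4205 and 4080, and mt-Atp8 and mt-Nd4l are lowest at 6.30 and 3.59.

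The mitochondrially encoded RNAs took a larger share of the counts after RT in most libraries. In Tert+ without RT they held 0.914%, 0.625% and 0.418% of the library's counts, and after RT 1.73%, 2.46%, 2.57% and 1.44%. In Tert- without RT the shares were 1.22%, 1.16% and 0.971%, and after RT 2.67%, 2.86%, 2.47% and 1.13%. The 4 Tert+ libraries after RT all lay above the 3 without, while Tert- RT replicate 4 fell among the Tert- libraries without RT. The group means were 0.652% ± 0.249 (SD, n = 3) and 2.05% ± 0.553 (SD, n = 4) in Tert+, and 1.12% ± 0.130 (SD, n = 3) and 2.28% ± 0.786 (SD, n = 4) in Tert-. These shares are sums over the members and were given no test.

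**Figure D2:**
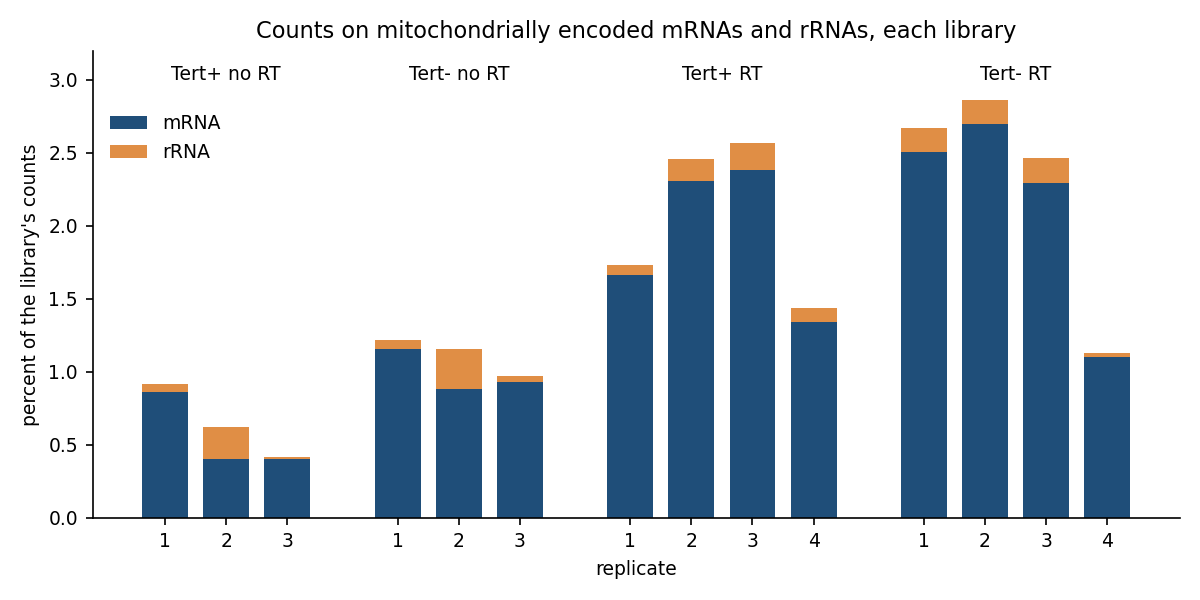
Percent of each library's counts on mitochondrially encoded mRNAs (blue) and rRNAs (orange), bars stacked from 0, by group and replicate. Tert+ RT libraries reach 1.44% to 2.57%, Tert- RT replicate 4 stays at 1.13%, and rRNA stands out in both no RT libraries numbered 2.

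Which mitochondrially encoded genes differed between RT and no RT was asked in each population. In Tert+, 8 of the 17 tested members were higher after RT by edgeR's quasi-likelihood test (Benjamini-Hochberg adjusted p under 0.05 over 15915 genes) and none was lower, where 1.11% of all tested genes were called higher. They comprised all 3 complex IV mRNAs (mt-Co1, mt-Co2, mt-Co3), mt-Cytb, the complex I mRNAs mt-Nd1, mt-Nd4 and mt-Nd5, and mt-Atp6. In Tert-, only mt-Co2 and mt-Co3 were called higher and none was lower, where 0.817% of all tested genes were called higher. The median log2 fold change of the tested members was 1.56 in Tert+ and 1.03 in Tert-, beside 0.00 and -0.02 for all genes tested. Taking the mean of the RT difference over both populations, 10 members were higher, adding mt-Nd2 and mt-Nd6. By the same test 6.36% of all tested genes were called higher. It takes all 14 libraries as independent, which the labels do not state.

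The calls within 1 population depended on single libraries, as did those over all genes. In Tert+ the count fell from 8 to 0 without Tert+ no RT replicate 2 or without replicate 3. All genes called higher then went from 176 of 15915 to 11 of 16803 and 12 of 16815. Without Tert+ RT replicate 2 or 3 the members called were 2 or 3, beside 45 of 15904 and 54 of 15924 genes. When only the Tert+ groups were fitted 1 member was called, beside 32 of 14285 genes. The lowest log2 fold change of the 8 members over all alternatives was 1.30. In Tert- the members called lay between 0 and 5 over the 14 fits that each left out 1 library, which called 7 to 519 genes higher. With DESeq2 7 members were called in Tert-, where 705 of 15261 genes were higher, beside 130 of 15915 in edgeR. Over both populations the members called lay between 8 and 11 in the 14 fits, which called 598 to 1314 genes higher.

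The complex IV mRNAs mt-Co2 and mt-Co3 had the lowest adjusted p-values of the members in each population. mt-Co2, which carries the copper centre that takes electrons from cytochrome c, measured 33.0, 22.9 and 16.8 CPM in Tert+ without RT and 62.4, 79.2, 92.0 and 89.8 after RT. Its Tert- libraries held 49.5, 53.1 and 35.4 CPM without RT and 138, 92.2, 179 and 100.4 after RT. In both populations every library after RT lay above every library without it. The log2 fold change was 1.74 (SE 0.28, edgeR adjusted p = 0.0118) in Tert+ and 1.47 (SE 0.27, adjusted p = 0.0227) in Tert-.

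mt-Co3, a further core subunit of complex IV, showed the same order. Its levels were 52.3, 25.5 and 17.8 CPM in Tert+ without RT against 75.9, 106, 124 and 101 after RT, and 57.2, 50.9 and 46.7 in Tert- without RT against 139, 114, 167 and 90.2 after RT. The groups did not overlap in either population, and the log2 fold changes were 1.68 (SE 0.31, edgeR adjusted p = 0.0185) and 1.30 (SE 0.31, adjusted p = 0.0459). mt-Co1 measured 4112, 1711 and 1501 CPM in Tert+ without RT and 7227, 10019, 10478 and 5635 after RT, a log2 fold change of 1.77 (SE 0.37, edgeR adjusted p = 0.0291). In Tert- it measured 5217, 3984 and 3189 without RT and 10617, 11201, 8792 and 4570 after RT. There the groups overlapped through replicate 4 after RT, and the log2 fold change of 1.09 did not pass (edgeR adjusted p = 0.118).

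mt-Cytb, the only complex III subunit made in the organelle, followed mt-Co1. In Tert+ it stood at 3163, 1181 and 1410 CPM without RT and at 5146, 6732, 7454 and 4128 after RT, without overlap. The Tert- libraries held 3557, 3075 and 3474 CPM without RT and 8559, 8710, 7315 and 3445 after RT, and replicate 4 after RT again lay among those without. The log2 fold changes were 1.61 (SE 0.35, edgeR adjusted p = 0.0317) and 1.06 (SE 0.34, adjusted p = 0.111).

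Among the 7 complex I mRNAs, 3 passed in Tert+ and none in Tert-. mt-Nd4, one of the proton-pumping subunits, measured 400.2, 167 and 152 CPM in Tert+ without RT and 743, 1178, 899 and 600.5 after RT. Its Tert- values were 513, 408 and 434 CPM without RT and 1122, 1131, 1080 and 515 after RT, so that the groups were separate in both populations, in Tert- by the margin between 513 and 515. The log2 fold changes were 1.84 (SE 0.35, edgeR adjusted p = 0.0208) and 1.09 (SE 0.34, adjusted p = 0.0994).

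mt-Nd5, another pumping subunit, stood at 712, 318 and 272 CPM in Tert+ without RT and 1112, 1477, 1503 and 995 after RT. In Tert- it stood at 831, 653 and 749 CPM without RT and 1812, 1722, 1796 and 771 after RT. The log2 fold changes were 1.55 (SE 0.33, edgeR adjusted p = 0.0311) and 1.03 (SE 0.33, adjusted p = 0.104). mt-Nd1, which lies at the junction of the membrane and matrix arms, measured 941, 462 and 486 CPM in Tert+ without RT and 1369, 1975, 2392 and 1301 after RT, without overlap. Its Tert- values were 902, 907 and 1024 without RT and 1898, 2241, 2032 and 671 after RT, where replicate 4 was the lowest of all 7 libraries. The log2 fold changes were 1.48 (SE 0.36, edgeR adjusted p = 0.0454) and 0.86 (SE 0.35, adjusted p = 0.202).

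mt-Nd2 and mt-Nd6 passed only as a mean over both populations. mt-Nd2, a pumping subunit, measured 246, 119 and 122.6 CPM in Tert+ without RT and 367, 654, 788 and 363 after RT. The Tert- libraries held 282, 216 and 440 CPM without RT and 664, 674, 737 and 172 after RT, with replicate 4 below all 3 libraries without RT. Its mean log2 fold change over both populations was 1.29 (SE 0.32, edgeR adjusted p = 0.0172). mt-Nd6, read from the opposite strand to the other mRNAs, measured 41.4, 26.7 and 21.0 CPM in Tert+ without RT and 55.9, 93.4, 117 and 67.0 after RT. In Tert- it measured 31.0, 41.3 and 63.0 without RT and 89.8, 100.02, 118 and 24.2 after RT. Its mean log2 fold change was 1.19 (SE 0.31, edgeR adjusted p = 0.0209). The mt-Nd5 and mt-Nd6 genes overlap on opposite strands at positions 13552 to 13565, and whether the counting used strand is not given in the sources used here.

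Of the ATP synthase mRNAs, mt-Atp6 encodes the proton channel subunit. It measured 20.2, 17.8 and 11.99 CPM in Tert+ without RT and 39.5, 42.5, 57.3 and 57.3 after RT, a log2 fold change of 1.56 (SE 0.33, edgeR adjusted p = 0.0293) with no overlap. In Tert- it measured 17.5, 30.1 and 23.7 CPM without RT and 49.7, 53.1, 71.3 and 24.7 after RT, a log2 fold change of 1.06 (SE 0.32, edgeR adjusted p = 0.0925). mt-Atp8, a small membrane subunit whose gene overlaps the start of mt-Atp6, had between 1 and 35 counts per library, and its log2 fold changes of 2.03 (SE 1.21) and 1.15 (SE 1.17) did not pass. mt-Nd4l, the shortest complex I gene, overlaps the start of mt-Nd4. It had between 0 and 32 counts per library, and its log2 fold changes of 2.08 (SE 1.41) and 3.40 (SE 1.49) did not pass either.

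Seen as ranges, 10 of the 17 tested members in Tert+ had every library after RT above every library without RT, where 7.28% of all tested genes did. The same was true in Tert- of mt-Co2, mt-Co3, mt-Nd4 and mt-Nd4l, where 9.70% of all tested genes did. Over both populations at once, the 8 libraries after RT lay above the 6 without for mt-Co2, mt-Co3 and mt-Nd4, where 1.82% of all tested genes did. Leaving out Tert- RT replicate 4, the low library in Tert-, gave 10, 1 and 10 calls in Tert+, in Tert- and over both populations. In that fit 134, 45 and 888 of 15622 genes were called higher.

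**Figure D3:**
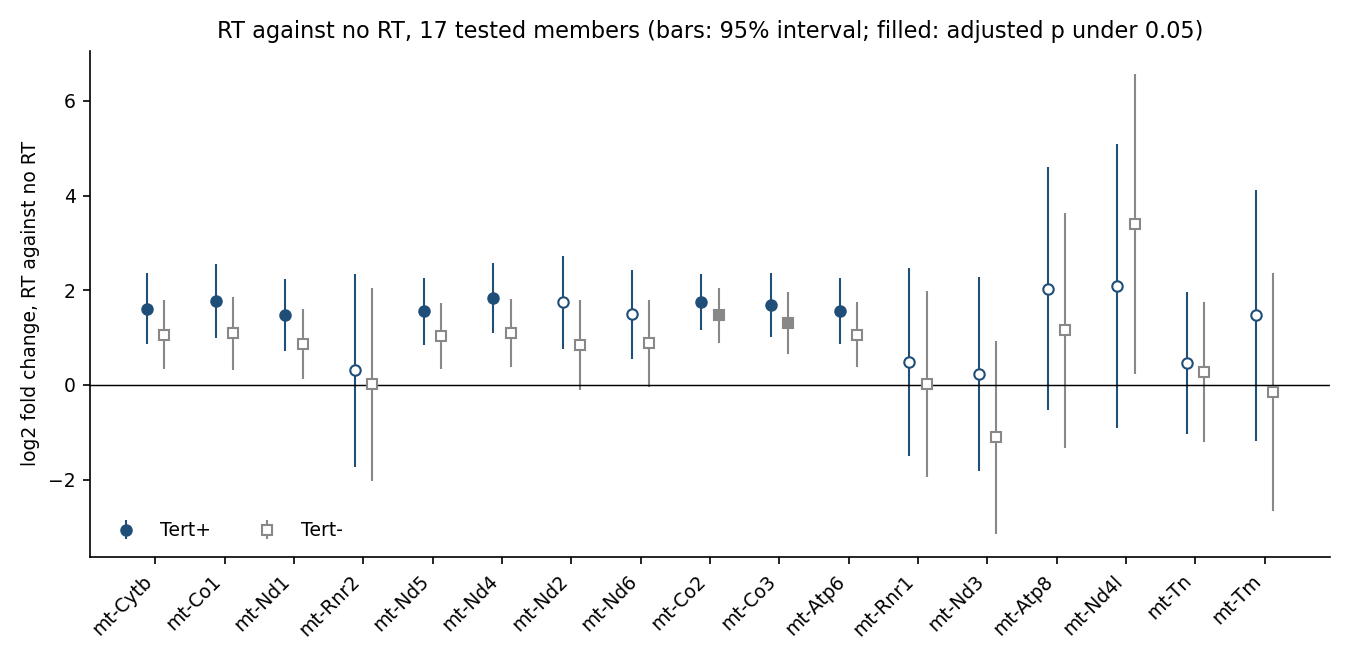
Log2 fold change of RT against no RT for the 17 tested members, circles for Tert+ and squares for Tert-, with 95% intervals and filled symbols where the adjusted p was under 0.05. The mRNAs from mt-Cytb to mt-Atp6 lie between 0.85 and 1.84, and the intervals of mt-Rnr1, mt-Rnr2 and mt-Nd3 are wide and hold 0.

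Germinal centre B cell markers moved with RT beside these mRNAs. In Tert+ all 6 were lower after RT past the threshold and in Tert- 4 of 6 were, where 0.873% and 0.804% of all tested genes were called lower. In Tert+ their summed level was 341 to 707 CPM without RT and 107 to 129 CPM after it. In Tert- it was 282 to 302 CPM without RT and 94.3 to 111 CPM after it. Of 7 macrophage markers none passed within a population, and 2, Csf1r and Cd68, fell over both, where 7.0% of all tested genes were called lower. Their summed level in Tert- was 1524 to 1865 CPM without RT and 250.4 to 1159 CPM after it, with no overlap. In Tert+ it was 117 to 281 CPM without RT and 94.2 to 191 CPM after it, which overlapped. Of 5 plasma cell markers 2 were called lower and 1 higher over both populations, and 1 was called lower in Tert-. Of 8 B cell markers 1, and of 10 acinar markers 1, was called lower over both. Of all tested genes 7.0% were called lower and 6.36% higher over both, and 0.804% lower in Tert-. In 5 of the 8 libraries after RT the total count was below that of every library without RT. The part of these cell types and of depth in the mitochondrial differences was not tested.

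The rRNAs did not pass in any comparison, and 2 libraries stood apart in both. mt-Rnr2 measured 544, 2180 and 158 CPM in Tert+ without RT and 613, 2773 and 366 in Tert- without RT, so that replicate 2 stood far above the rest in both populations. After RT it measured 627, 1402, 1799 and 916 CPM in Tert+ and 1619, 1528, 1620 and 269 in Tert-. mt-Rnr1 showed the same libraries apart, with 16.1, 65.7 and 4.10 CPM in Tert+ and 19.2, 110 and 12.5 in Tert- without RT. After RT it measured 28.9, 46.6, 56.1 and 30.6 CPM in Tert+ and 56.9, 67.1, 61.6 and 6.99 in Tert-.

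Within the mitochondrial counts, the rRNAs took 35.6% of Tert+ no RT replicate 2 and 23.4% of Tert- no RT replicate 2. They took between 3.83% and 5.44% in the other libraries without RT and between 2.58% and 7.20% after RT. Between 21.7 and 38.5 counts of mt-Rnr2 fell to 1 of mt-Rnr1 across all 14 libraries. In Tert+ this ratio was 33.2 to 38.5 without RT and 21.7 to 32.1 after RT, without overlap. In Tert- it was 25.2 to 31.9 without RT and 22.8 to 38.4 after RT, which overlapped. The log2 fold changes with RT were 0.30 (SE 0.93) for mt-Rnr2 and 0.49 (SE 0.92) for mt-Rnr1 in Tert+, and 0.01 (SE 0.92) and 0.02 (SE 0.91) in Tert-, with edgeR adjusted p-values between 0.850 and 0.999. Without both no RT libraries numbered 2, a choice made after their values were seen, the log2 fold changes were 1.77 for mt-Rnr2 and 2.02 for mt-Rnr1 in Tert+ (edgeR adjusted p = 0.358 and 0.288) and 1.37 and 1.61 in Tert- (0.477 and 0.392). Leaving out those libraries also took the members called in Tert+ and in Tert- to 0, and over both populations to 7. All genes called higher were 10, 0 and 384 of 16676 in Tert+, in Tert- and over both.

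Whether the mRNAs moved apart from the rRNAs was examined within libraries. The log2 ratio of mt-Co1 to mt-Rnr2 counts was 1.94 ± 1.99 (SD, n = 3) in Tert+ without RT and 2.88 ± 0.45 (SD, n = 4) after RT, with an exact two-sided permutation p of 0.686. In Tert- it was 2.25 ± 1.49 (SD, n = 3) and 3.03 ± 0.73 (SD, n = 4), with an exact permutation p of 0.571. None of 8 such ratio tests, chosen after the data were seen, passed, and none could have passed with 3 against 4 libraries. The ratio of mt-Rnr2 to mt-Rnr1 in Tert+, whose groups lay wholly apart, gave an exact permutation p of 0.0571, still above the threshold. These tests therefore cannot decide whether the mRNAs changed relative to the rRNAs. The ranges of the mt-Co1 to mt-Rnr2 ratio without and after RT overlapped in both populations.

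The tRNAs were barely counted, and those on the minus strand held most of what there was. Of the 8 tRNA genes on the minus strand 7 had counts, 498 in all, and of the 14 on the plus strand 3 had counts, 103 in all. The 2 that passed the filter are shown with their anticodon in capitals, from GENCODE M21 on GRCm38. They are the asparagine tRNA on the minus strand and the methionine tRNA on the plus strand.
mt-Tn (chrM:5089-5159, minus strand): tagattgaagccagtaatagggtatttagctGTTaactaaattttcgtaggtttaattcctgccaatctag
mt-Tm (chrM:3845-3913, plus strand): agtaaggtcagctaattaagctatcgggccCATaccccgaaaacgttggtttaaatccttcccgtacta

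mt-Tn had 12 to 39 counts in every library and 345 in all, and mt-Tm had 1 to 15 counts and 92 in all. mt-Tn measured 3.18, 0.759 and 1.67 CPM in Tert+ without RT and 3.05, 3.56, 2.32 and 1.37 after RT, and the ranges overlapped. In Tert- it measured 2.87, 1.84 and 3.46 CPM without RT and 3.26, 4.02, 3.57 and 2.24 after RT, which overlapped too. Its log2 fold changes of 0.47 (SE 0.70) in Tert+ and 0.26 (SE 0.70) in Tert- did not pass. mt-Tc and mt-Tp, the cysteine and proline tRNAs, followed with 71 and 57 counts in all, and the other 6 counted tRNAs held 16 or fewer. For the 12 tRNAs at 0, a count of 0 allows up to 3 counts, which is between 0.188 and 0.543 CPM of the library total, counting error only.

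Tert+ and Tert- cells were compared next. Without RT, none of the 17 tested members passed edgeR's threshold (DESeq2 and voom also called none), where 0.0377% of all tested genes were called lower in Tert+ and 0 were called higher. At an unadjusted p under 0.05, 5 were lower in Tert+ (mt-Co2, mt-Nd4, mt-Nd5, mt-Cytb and mt-Co3), where 3.06% of all tested genes were. The log2 fold change lay below 0 for 16 of the 17, with a median of -0.71 beside 0.01 for all genes tested. mt-Co2 differed by -0.93 (SE 0.28, edgeR adjusted p = 0.793), and its 3 Tert+ libraries at 16.8 to 33.0 CPM lay under the 3 Tert- libraries at 35.4 to 53.1. mt-Nd4 was the other member whose groups did not overlap, at 152 to 400.2 CPM against 408 to 513, where 4.83% of all tested genes had Tert+ wholly below Tert-. Of 7 macrophage markers 1, the complement gene C1qc, passed in the same comparison, lower in Tert+, where 0.0377% of all tested genes were called lower. The 7 summed to between 117 and 281 CPM in Tert+ and between 1524 and 1865 in Tert- without RT, with all 7 markers detected in both groups. Their part in these values was not tested.

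After RT the values of the populations lay closer. None of the 17 passed (edgeR, DESeq2 and voom), where 0.00628% of all tested genes were called lower in Tert+ and the same share higher, and at an unadjusted p under 0.05 only mt-Co2 was lower, where 3.80% of all tested genes were. Its log2 difference was -0.66 (SE 0.24, edgeR adjusted p = 0.594), with Tert+ at 62.4 to 92.0 CPM and Tert- at 92.2 to 179, so the ranges met without overlap, where 2.46% of all tested genes had Tert+ wholly below Tert-. The median log2 difference of the tested members was -0.09.

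The RT difference in Tert+ minus that in Tert- was tested directly. None of the 17 passed in edgeR, DESeq2 or voom, none reached an unadjusted p under 0.05 in edgeR, and 0 of all tested genes were called. For mt-Co1 this difference was 0.68 with a 95% interval from -0.37 to 1.74, and for mt-Co2 0.27 with an interval from -0.52 to 1.06. A larger RT difference in Tert+ than in Tert- was therefore not shown for any member, although 8 passed in one population and 2 in the other.

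The members that share sequence with nuclear transcripts were set beside those that do not. Sharing was measured as the percent of a gene's 50-base words also present in a GENCODE transcript outside mtDNA. It was 100% for mt-Co2, 99.9% for mt-Co3, 99.5% for mt-Atp6, 98.8% for mt-Nd4l and 98.0% for mt-Nd3. Intermediate values were 62.2% for mt-Nd4 and 51.1% for mt-Co1. It was 8.19% for mt-Nd2, 7.61% for mt-Nd5, 1.04% for mt-Rnr2 and 0 for mt-Nd1, mt-Nd6, mt-Cytb, mt-Atp8 and mt-Rnr1. The 5 genes above 90% had levels of at most 109 CPM per kilobase, while mt-Cytb and mt-Nd1, with none shared, had 4205 and 1388. mt-Atp8 and mt-Rnr1, also with none shared, stood at 6.30 and 43.6. Nuclear sequence outside annotated transcripts was not searched, however. mt-Atp8 lies between mt-Co2 and mt-Atp6, whose copies Gm28661 and Gm10925 are neighbours on chromosome 1. Its value of 0 therefore does not show that it has no copy there, and it cannot stand as a low gene without a copy.

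**Figure D4:**
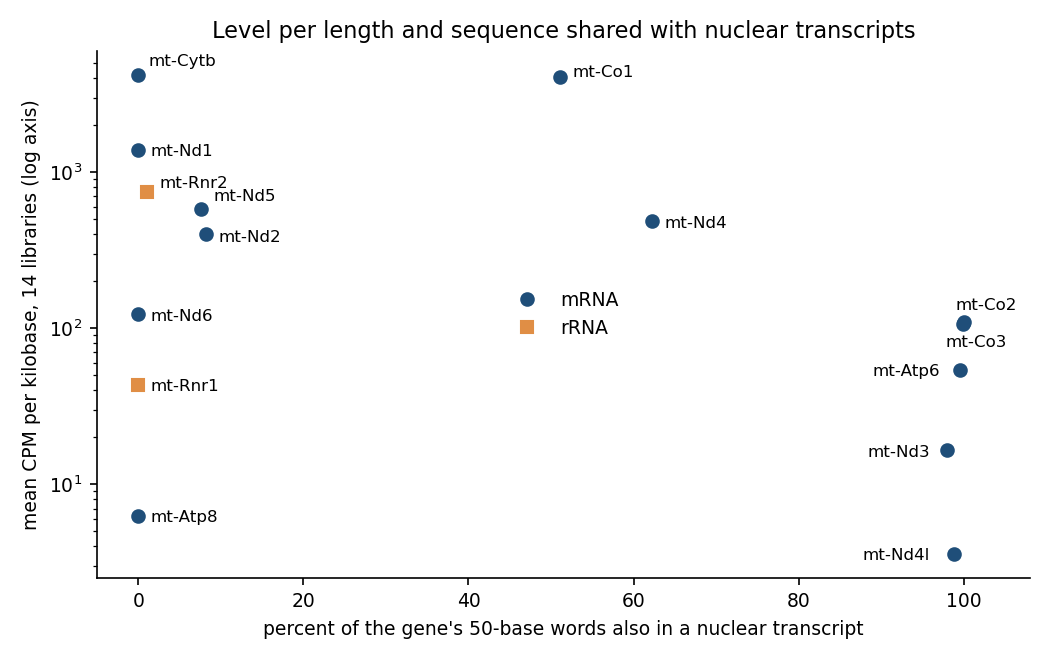
Mean CPM per kilobase over 14 libraries (log axis) against the percent of 50-base words shared with a nuclear transcript, blue circles for mRNAs and orange squares for rRNAs. The 5 genes at 98.0% to 100% lie between 3.59 and 109 CPM per kilobase, and genes with no shared words span 6.30 to 4205. Nuclear sequence outside annotated transcripts was not searched.

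In all, 51 genes of the table outside mtDNA had a transcript matching a mitochondrially encoded gene over at least 100 bases. The 4 with the most counts belonged to the row on chromosome 1, namely Gm28661 with 9860 counts over the 14 libraries, Gm28437 with 7554, Gm10925 with 6850 and Gm29216 with 3232. For mt-Co2, whose copy is identical over 681 of its 684 bases, the mitochondrial gene held between 44.7% and 52.8% of the counts of the pair in every library. mt-Co3 held between 44.9% and 66.9% and mt-Atp6 between 20.2% and 52.6%. mt-Co1 and mt-Nd4, which are longer than their copies, had lowest shares of 99.3% and 99.5%.

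Summing each member with its copy before the fit, chosen after the data were seen, gave 8, 2 and 11 calls in Tert+, in Tert- and over both populations. In that fit 173, 125 and 1011 of 15908 genes were called higher. For mt-Co2 the summed log2 fold changes were 1.72 (SE 0.27, edgeR adjusted p = 0.0109) in Tert+ and 1.45 (SE 0.26, adjusted p = 0.0199) in Tert-. For mt-Co3 they were 1.77 (adjusted p = 0.0161) and 1.52 (adjusted p = 0.0297) by the same edgeR test. The member that the sum added over both populations was mt-Nd3.

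mt-Nd3, a complex I subunit next to the quinone site, had the widest split between the mitochondrial gene and its copy. Its counts were 96, 53 and 36 in Tert+ without RT, beside 13, 3 and 2 for Gm28438, and 35, 81 and 115 in Tert- without RT, beside 24, 4 and 1. After RT mt-Nd3 had 8, 12, 30 and 245 counts in Tert+ beside 166, 178, 429 and 34 for Gm28438. In Tert- after RT it had 10, 9, 38 and 61 counts beside 104, 275, 358 and 11. The copy thus had more counts than the mitochondrial gene in replicates 1 to 3 of both populations after RT, and fewer in both replicates 4 and in all 6 libraries without RT.

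Expressed as a share of the pair, mt-Nd3 held between 59.3% and 99.1% in the 6 libraries without RT. It held between 3.17% (95% exact binomial interval 1.46 to 5.93) and 9.60% (6.88 to 12.9) in replicates 1 to 3 after RT. In replicate 4 after RT it held 87.8% (83.4 to 91.4) in Tert+ and 84.7% (74.3 to 92.1) in Tert-. No molecular identifiers are named in the labels, so these intervals reflect counting error alone. The pair differs only at T3C over the aligned bases, and the bases that the animals carry at that position were not read here.

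In Tert- and over both populations, the sign of the mt-Nd3 fold change with RT depended on whether the copy was counted with it. In Tert+ the mt-Nd3 fold change was above 0 either way. Taken alone, its log2 fold change was 0.24 (SE 0.96, edgeR adjusted p = 0.940) in Tert+, -1.11 (SE 0.96, adjusted p = 0.589) in Tert- and -0.44 (SE 0.68, adjusted p = 0.724) over both. Gm28438 alone gave 5.26 (SE 0.96, edgeR adjusted p = 0.00344) over both. The pair summed measured 13.3, 3.54 and 2.88 CPM in Tert+ and 4.34, 7.43 and 12.2 in Tert- without RT. After RT it measured 15.2, 30.7, 62.6 and 23.9 CPM in Tert+ and 20.7, 36.8, 52.4 and 6.21 in Tert-. Its log2 fold changes were 2.35 (SE 0.73, edgeR adjusted p = 0.106), 1.87 (SE 0.71, adjusted p = 0.172) and 2.11 (SE 0.51, adjusted p = 0.0145) in Tert+, in Tert- and over both.

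**Figure D5:**
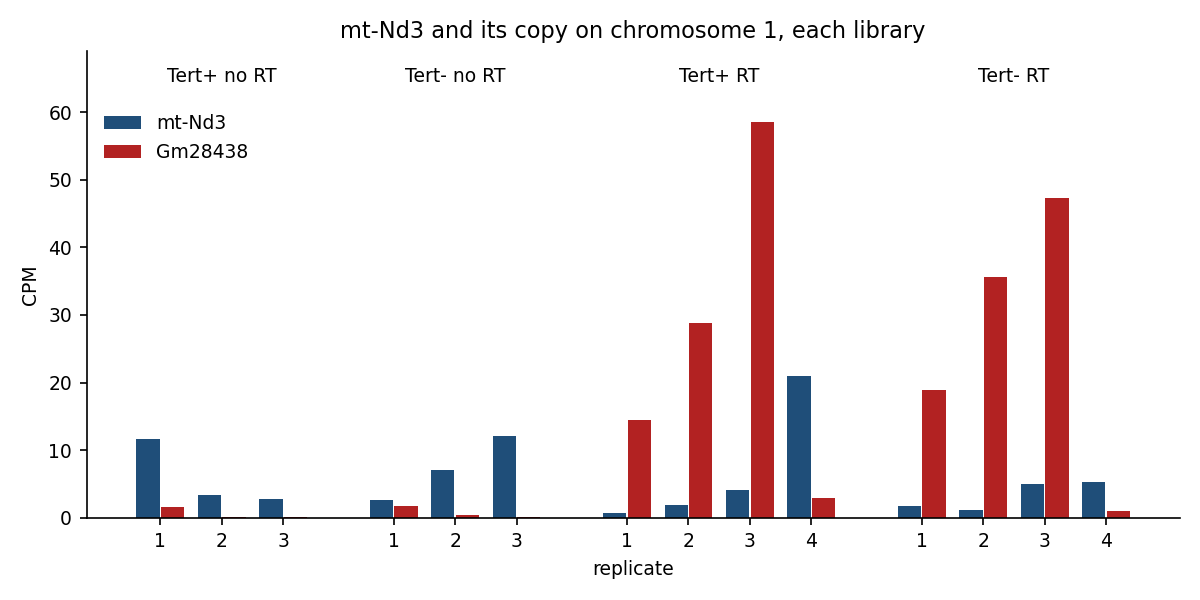
CPM of mt-Nd3 (blue) and of its chromosome 1 copy Gm28438 (red) in each library, bars from 0, by group and replicate. Gm28438 is above mt-Nd3 in replicates 1 to 3 after RT of both populations, and mt-Nd3 is above Gm28438 in both replicates 4 after RT and in all 6 libraries without RT.

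mt-Atp6 had 1 library in which its share stood apart. In Tert+ RT replicate 3 Gm10925 had 1659 counts beside 420 for mt-Atp6, a member share of 20.2% (95% exact binomial interval 18.5 to 22.0). The other 13 libraries lay between 33.7% and 52.6%. Summed with Gm10925, mt-Atp6 had log2 fold changes of 1.85 (SE 0.42, edgeR adjusted p = 0.0394) in Tert+ and 0.97 (SE 0.41, adjusted p = 0.217) in Tert-.

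The nuclear genes that act on mtDNA were described from lists chosen with earlier results of these data known. Of 10 tested genes for transcribing mtDNA none passed in either population. Tfam, which packages mtDNA and starts its transcription, measured 85.4 ± 8.005 CPM (SD, n = 3) without RT and 82.1 ± 19.0 (SD, n = 4) after RT in Tert+, and 71.9 ± 8.95 and 110 ± 16.9 in Tert- (log2 fold change 0.61, edgeR adjusted p = 0.107). Mterf3, a regulator of that transcription, stood at 33.5 ± 8.96 and 51.1 ± 11.4 CPM in Tert+. Of 13 genes for mtDNA replication and nucleotide supply, 1 rose in Tert- and none in Tert+, where 0.817% and 1.11% of all tested genes were called higher. That was Polg2, the accessory subunit of the mitochondrial DNA polymerase, from 17.4 ± 3.14 to 44.4 ± 11.8 CPM (log2 fold change 1.35, edgeR adjusted p = 0.0297). Tk2 and Dguok, kinases that supply its nucleotides, measured 67.5 ± 12.8 and 92.9 ± 5.89 CPM, and 74.5 ± 11.1 and 63.7 ± 9.30 CPM, in Tert+ without and after RT, and did not pass.

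Among 27 tested genes of mitochondrial RNA processing, 1 fell in Tert- and none in Tert+, where 0.804% and 0.873% of all tested genes were called lower. Over both populations 2 fell (Ptcd2 and Rexo2), where 7.0% of all tested genes were called lower. Ptcd2, which acts on the mt-Cytb RNA, had a log2 fold change of -0.77 in Tert- (edgeR adjusted p = 0.0497). Lrpprc, which stabilises mitochondrial mRNAs, measured 96.5 ± 7.63 and 63.8 ± 25.7 CPM in Tert+ without and after RT (edgeR adjusted p = 0.244). Hsd17b10, a subunit of mitochondrial RNase P, measured 89.4 ± 16.9 and 72.7 ± 25.2 CPM in the same groups (edgeR adjusted p = 0.650). None of the 10 tested regulators of mitochondrial biogenesis passed, and Nrf1, a transcription factor for nuclear genes of respiration, stood at 100.01 ± 2.55 and 95.4 ± 21.4 CPM in Tert+. Myc, a growth-linked transcription factor, measured 527 ± 33.1 and 636 ± 141 CPM there (edgeR adjusted p = 0.545). Of 82 mitochondrial ribosomal protein genes none passed within a population. Over both populations 8 fell, near the 7.0% of all tested genes called lower, and the median log2 fold change was -0.18. Mrps27, a small subunit protein, had the lowest adjusted p of those 8, with a log2 fold change of -0.87 (edgeR adjusted p = 0.00664). Mrpl4, a large subunit protein, was another, with a log2 fold change of -0.41 over both (edgeR adjusted p = 0.0451), and it measured 115 ± 22.4 and 73.6 ± 7.24 CPM in Tert+. Mrpl23, also of the large subunit, measured 97.3 ± 14.6 and 80.6 ± 19.6 CPM in Tert+ (edgeR adjusted p = 0.560).

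Nuclear subunits of the complexes that hold mitochondrially encoded subunits mostly had fold changes below 0 with RT. For complex I, 34 of the 36 tested nuclear subunits lay below 0 in each population, with medians of -0.25 in Tert+ and -0.36 in Tert-, while 49.7% and 49.2% of all tested genes lay above 0. Over both populations 7 of the 36 fell past the threshold, beside the 7.0% of all tested genes. Ndufv1, the subunit that takes electrons from NADH, measured 197 ± 18.9 and 135 ± 11.6 CPM in Tert+ and 180 ± 35.5 and 115 ± 23.8 in Tert- (edgeR adjusted p = 0.00597 over both). Ndufa9, an accessory subunit, measured 177 ± 14.5 and 150 ± 11.7 CPM in Tert+ (edgeR adjusted p = 0.510).

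In complex III, 1 of 9 nuclear subunits fell in each population, where 0.873% and 0.804% of all tested genes were called lower in Tert+ and Tert-. It was Uqcrc1, a core protein, in both. It measured 612 ± 103 CPM (SD, n = 3) without RT and 361 ± 53.4 (SD, n = 4) after RT in Tert+, and 541 ± 129 and 310 ± 36.8 in Tert-. The log2 fold changes were -0.76 (edgeR adjusted p = 0.0389) and -0.80 (adjusted p = 0.0354). In complex IV, 1 of 16 fell in Tert+, Cox6a1, a regulatory subunit, from 266 ± 39.1 to 158 ± 12.3 CPM (log2 fold change -0.76, edgeR adjusted p = 0.0293). Its tissue-restricted relative Cox6a2 fell in Tert- from 6.94 ± 3.26 to 0.431 ± 0.527 CPM (edgeR adjusted p = 0.0318).

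Of 17 nuclear ATP synthase genes, 1 fell in Tert+ and 3 over both populations, where 0.873% and 7.0% of all tested genes were called lower. Atp5a1, the alpha subunit of the catalytic head, went from 1238 ± 37.9 to 843 ± 68.5 CPM in Tert+ (log2 fold change -0.55, edgeR adjusted p = 0.0345). Complex II has no mitochondrially encoded subunit. Of its 4 genes 2, Sdha and Sdhb, fell over both populations, where 7.0% of all tested genes were called lower. In Tert- 1 of the 4, Sdha, was called lower, where 0.804% of all tested genes were. Sdha, the flavoprotein subunit, measured 504 ± 23.6 and 410 ± 26.2 CPM in Tert+ and 531 ± 49.5 and 382 ± 24.3 in Tert- (log2 fold change -0.47 in Tert-, edgeR adjusted p = 0.0427). The germinal centre B cell markers and depth also differed with RT beside these lists, as did the summed macrophage markers in Tert- but not in Tert+. The part of these markers and of depth was not tested.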

How the data were processed

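The authors deposited a table of read counts per gene for the 14 libraries, without normalisation, with each gene's position, length and biotype per the file headers. The submitters' processing notes name HISAT2, without a version, and mm10, and the counting program is not given in the sources used here. Counts were analysed with edgeR 4.0.16 in R 4.3.3. After filterByExpr over the 4 groups (15915 genes kept), counts were scaled with TMM and fitted with 1 term per group over all libraries. Quasi-likelihood F tests were two-sided, and p-values were adjusted by Benjamini and Hochberg over all genes tested, with a threshold of 0.05. The script was tested on simulated data. Members and lists were chosen with earlier results of these data known.

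Values in every library are given for mt-Rnr1, mt-Rnr2, mt-Nd6, the highest member per length of each class and each member past the threshold. Nuclear lists are represented by up to 4 members past the threshold in Tert+, or else by the 2 most abundant. Other genes were named after their values were seen. Copies were sought among GENCODE M21 transcripts with BLAST and 50-base words, in place of the genome search that had been planned. Alternatives covered scaling, filter, DESeq2 1.42.0, voom of limma 3.58.1, the groups fitted, a replicate block and leaving out each library. Total counts of 5520412 to 15943597 set the precision. Some results are not reported here.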

Additional observations from a re-analysis of the deposited data

Results flagged for a closer look

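In 52 groups of 4 libraries, the highest or lowest value was compared with the rest by Dixon's test, which by chance singles out about 1 in 20 groups. It singled out 8 values. Of these, 6 were low values of Tert- RT replicate 4. That library held 6.99 CPM of mt-Rnr1, where the other 3 held 56.9 to 67.1, and 269 CPM of mt-Rnr2, where the others held 1528 to 1620. It held 172 CPM of mt-Nd2 against 664 to 737, 515 CPM of mt-Nd4 against 1080 to 1131, and 771 CPM of mt-Nd5 against 1722 to 1812. Gm29216, the copy of mt-Co1 on chromosome 1, stood there at 17.4 CPM against 36.1 to 37.7.

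The remaining 2 were high values in Tert+ after RT. mt-Nd3 stood at 21.0 CPM in replicate 4, where the other 3 libraries held 0.697 to 4.09. Gm10925, the copy of mt-Atp6, stood at 226 CPM in replicate 3, where the others held 44.3 to 70.2.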

How the results depend on the processing

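The counts of members past the threshold for RT in Tert+, RT in Tert- and RT over both populations were 8, 2 and 10. They were 4 in Tert+ without the filter on low counts, where 167 of 26753 genes were called higher. With only the Tert+ groups fitted the count was 1 in Tert+, where 32 of 14285 genes were called higher. With DESeq2 it was 7 in Tert-, where 705 of 15261 genes were called higher. Leaving out 1 library at a time gave 0 to 10 in Tert+, 0 to 5 in Tert- and 8 to 11 over both. For RT in Tert+, 0 were called once Tert+ no RT replicate 2 or 3 was removed, 2 once Tert+ RT replicate 2 was and 3 once Tert+ RT replicate 3 was. In the same order, 11, 12, 45 and 54 genes of all tested were called higher, beside 176 in the main fit. For RT in Tert-, removing Tert+ no RT replicate 1 gave 5, and removing Tert- no RT replicate 2 or 3 or Tert- RT replicate 3 gave 0. In the same order, 219, 7, 7 and 9 genes of all tested were called higher, beside 130 in the main fit. Removing Tert+ no RT replicate 2 gave 1, as did any of Tert+ RT replicates 2 to 4 and any Tert- RT library but replicate 3. Those fits called between 33 and 147 genes higher. Further choices were made after seeing the data. Without both no RT libraries numbered 2 the counts were 0 in Tert+ and 0 in Tert-, and without Tert+ RT libraries 3 and 4 together they were 0 and 1. Beside these, 10 and 0 genes, and 31 and 117 genes, of all tested were called higher. The cause was not tested in any of these, beyond the smaller number of libraries. Both Tert+ against Tert- comparisons and the difference of the RT effects gave 0 under every alternative run.

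Each called value of a single member kept its direction. The 20 such values were each read again in 24 or 25 alternatives, which gave 490 readings that share fits and libraries. Of these readings 401 stayed past the threshold, 89 did not and 0 reversed. mt-Co1, mt-Co2, mt-Co3, mt-Atp6, mt-Nd4, mt-Nd5 and mt-Cytb kept their call over both populations in 24 of 24 alternatives. DESeq2 and the fit without a filter moved the median log2 fold change of all genes over both populations to 0.16 and 0.11, from -0.01.

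Replicate numbers recur across the groups. Same-numbered Tert+ and Tert- libraries deviated together with correlations of 0.11, 0.12 and -0.00 without RT and between -0.05 and 0.05 after RT. Not every library correlated best with its own number, and the main fit did not pair them. Some traits of the members were nonetheless shared by number. The rRNAs took 35.6% and 23.4% of mitochondrial counts in the no RT libraries numbered 2. mt-Nd3 held 87.8% and 84.7% of its pair in the RT libraries numbered 4. Whether same-numbered libraries share an origin was not tested, and the calls over both populations take all libraries as separate. With the replicate block the counts were 9, 2 and 10, where 152, 132 and 809 of 15915 genes were called higher. With the 7 same-numbered pairs as a block both Tert+ against Tert- counts stayed at 0. mt-Nd4l, mt-Atp8 and the tRNAs, with at most 39 counts in a library, limit what could be detected.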
